A study of Mus musculus with 24 samples.

Results

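The BCL2 family decides whether a cell keeps the outer membrane of its mitochondria closed, and its transcripts were measured here in C2C12 myotubes, muscle fibre-like cells grown from a mouse myoblast line. The 10 members, of 55487 genes listed, were chosen by name to cover the pro-survival, BH3-only and effector branches. Earlier results of these data were known when they were chosen, so comparisons of the members with all genes are descriptions. All 10 passed the filter on low values that left 14541 genes to test. The 24 RNA-seq libraries form 4 groups of 6 cultures, and all cultures were unmodified C2C12 cells that had been differentiated under 5 % O2 and are labelled as day 5 of differentiation. Cultures were then kept for 2 h at 5 % O2 or 1 % O2, and were harvested without stimulation (5 % CTRL and 1 % CTRL) or after electrical stimulation (5 % STIM and 1 % STIM). Stimulated cultures received 14 V pulses lasting 2 ms at 50 Hz, delivered in 6 bouts, each 30 s long, with a rest of 4 min before the next bout. The design thereby asks how low O2, contraction-like stimulation and both together change the myotubes. In the paper the 2 h precede the stimulation, and the medium was changed on either side of it. The paper does not state whether unstimulated cultures had the same medium changes and total time. The part of this handling in the responses to stimulation below was not tested. Every culture stems from 1 cell line, so the spread between libraries describes cultures and not animals.

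As background, pro-survival members such as BCL2, BCL-XL and MCL1 hold the effectors BAX and BAK1 in check, and the BH3-only members bind and block the pro-survival ones or activate the effectors directly. When the effectors assemble into pores, cytochrome c leaves the mitochondria and joins APAF1 in the apoptosome, which activates caspase 9. Pro-survival members also sit on the endoplasmic reticulum and affect how calcium passes to mitochondria, and muscle cells use the family during differentiation, disuse and regeneration.

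Values are normalized counts, that is reads per gene divided by the DESeq2 size factor of the library, and libraries held between 26541858 and 28173745 reads. A difference was called at a Benjamini-Hochberg adjusted p under 0.05 in a limma fit of all 14541 genes on the log2(normalized count + 1) scale, which slightly understates the change of low genes. The lowest member value was 34 reads, for Bmf in a 5 % CTRL library. The libraries carried RNA of myotubes, with group medians from 590940 to 662290 for the summed normalized count of 13 myotube markers. For 7 markers of myoblasts and reserve cells the medians were 5837 to 7118. The lists hold genes of unlike abundance, so the gap between the sums does not measure the share of each cell type. Cell cycle markers of the second list were present, with means of 1250 for Mki67 and 1264 for Top2a in 5 % CTRL. No listed marker was at 0 in every library of a group. Both sums were lower in 1 % CTRL than in 5 % CTRL, with medians of 622445 against 662290 for myotube markers and 6446 against 7118 for myoblast and reserve cell markers. By gene, 8 of 13 myotube markers fell and 1 rose, and 4 of 7 myoblast and reserve cell markers rose and 2 fell. With stimulation at 5 % O2, 4 myotube markers fell, and 3 myoblast and reserve cell markers rose and 2 fell; at 1 % O2, 2 myotube markers fell, and 1 of the other list rose and 2 fell. The part of these shifts in the results below was not tested. In these bulk samples, fewer cells of a type and less RNA per cell cannot be told apart. Of 8 hypoxia genes, 7 rose and 1 fell with 1 % O2 without stimulation, and Adm, the adrenomedullin gene, went from a mean of 112 to 1769.8. All 8 were lower in 1 % STIM than in 1 % CTRL (Adm 1061 against 1769.8) and 7 were called for the interaction, so they moved together with the responses to stimulation at 1 % O2 and the interactions given below, and their part in these was not tested. Of 7 stimulation genes, 3 rose, 1 fell and 3 were not called at each O2 level. Cxcl1, a chemokine gene, went from 7.19 to 3239 at 5 % O2 and from 8.20 to 167 at 1 % O2, and Arc, an immediate early gene, fell from 308 to 202 and from 66.9 to 35.0. Nr4a1, another immediate early gene, went from 302 to 729.7 with stimulation at 5 % O2, but rose as well with 1 % O2 alone, to 739. The library 1 % CTRL replicate 1 stood apart from its group. Its median absolute log2 deviation per gene was 0.146, against 0.065 to 0.0782 in the other 1 % CTRL libraries. Calls of members that were gained or lost without this library are given with and without it. For genes other than the members, values that involve 1 % CTRL are given only with this library included.

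Promoter sequences are shown for the BH3-only genes that rose most with stimulation. Pmaip1 was left out of the promoter search. For the other 9 of the 10 members, 16 RefSeq promoter windows were used (GRCm38.p6, 250 bases before to 50 after a start site). They were searched on both strands for the FOXO motif GTAAACA, for the core of the hypoxia response element (ACGTG or GCGTG), for the AP-1 motif TGACTCA and for the cyclic AMP response element TGACGTCA. The FOXO motif was held by 2 of the 16 windows, 1 of Bcl2l11 and 1 of Bbc3, and by 3.65 % of all 32851 mouse windows of this length. The hypoxia core was in 8 of the 16 windows against 43.8 % of all windows, and no member window held the AP-1 or cyclic AMP motif, which 5.20 % and 1.79 % of all windows held. The 250 bases before the most distal start of Bcl2l11 (chr2:128125788-128126037, plus strand) and of Bmf (chr2:118549687-118549936, minus strand), and a short stretch before an internal Bbc3 start (chr7:16310083-16310111, plus strand), read as follows, with matches of the FOXO motif or hypoxia core on either strand in capitals.
Bcl2l11: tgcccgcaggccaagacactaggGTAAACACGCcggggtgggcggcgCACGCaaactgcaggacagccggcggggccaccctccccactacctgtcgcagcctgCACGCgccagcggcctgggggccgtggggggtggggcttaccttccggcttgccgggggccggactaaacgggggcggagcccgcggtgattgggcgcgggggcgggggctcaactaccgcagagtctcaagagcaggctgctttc
Bmf: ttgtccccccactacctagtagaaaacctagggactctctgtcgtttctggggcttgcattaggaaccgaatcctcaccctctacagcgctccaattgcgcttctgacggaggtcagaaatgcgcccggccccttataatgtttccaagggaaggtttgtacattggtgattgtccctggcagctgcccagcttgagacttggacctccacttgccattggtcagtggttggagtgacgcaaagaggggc
Bbc3: tctggcgggttTGTTTACaaacaatgggg
In Bcl2l11, the FOXO match lies 227 bases before the start and overlaps the first hypoxia core match, while the Bmf stretch holds neither motif. Another Bmf window, not shown, held 1 hypoxia core match at its start site. The Bbc3 windows held 4, 1 and 3 hypoxia core matches, all outside the short stretch shown. The Bbc3 match lies 167 bases before that start, inside the annotated gene but in no annotated exon. These matches are letters in a window, and no binding was measured.

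**Figure D1:**
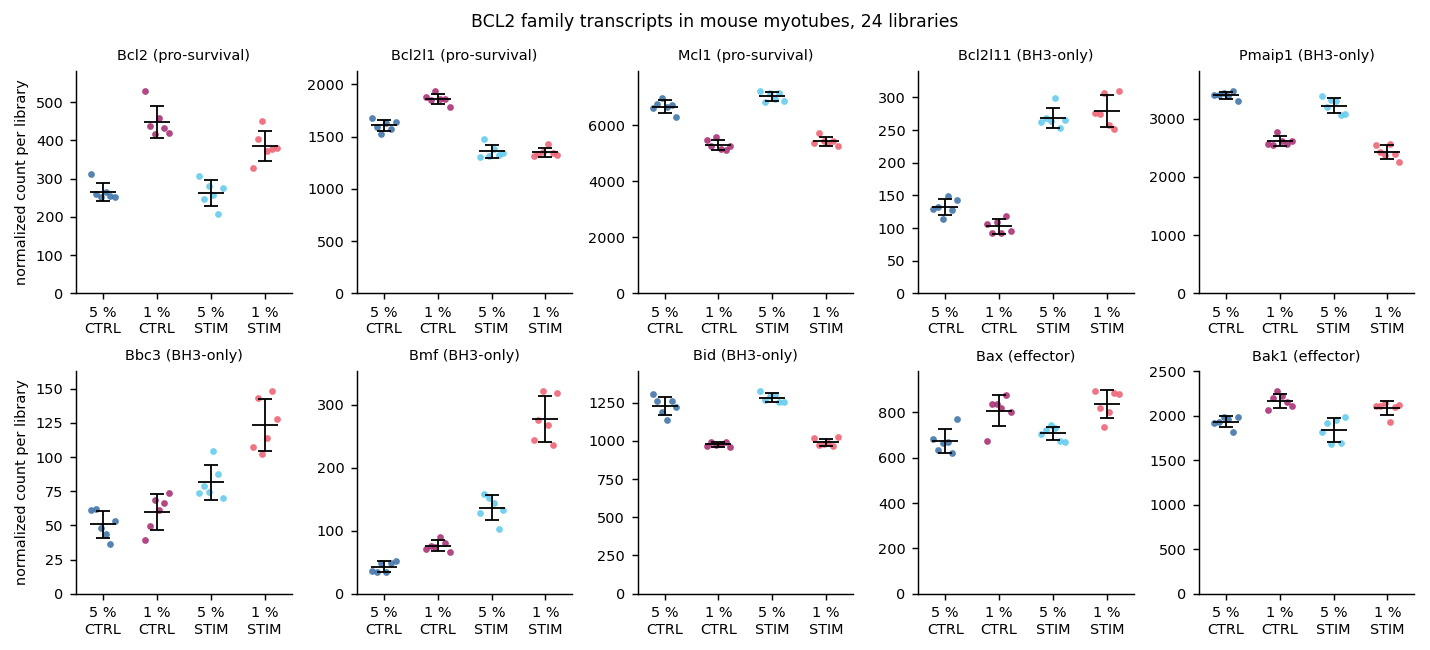
Normalized count of each BCL2 family gene (vertical axes, from 0) in the 6 libraries of each group (horizontal axes). Points are libraries, and bars are the mean and SD; Bmf and Bcl2l11 stand higher in both stimulated groups, and Mcl1, Pmaip1 and Bid stand lower in both 1 % O2 groups.

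Low O2 moved most of the family, in both directions. In 1 % CTRL against 5 % CTRL, 5 of the 10 members rose, 4 fell and 1 was not called, and 7 had groups that did not overlap. Over all genes tested, 59.9 % were called, 29.4 % higher and 30.5 % lower, and 38.2 % had groups without overlap, so the count of 9 called members stands on a high background. In 1 % STIM against 5 % STIM, 5 members rose, 3 fell and 2 were not called, with 5 not overlapping; the shares of all genes were 57.4 % called, 29.0 % higher, 28.4 % lower and 37.3 % without overlap. These comparisons share no library, and 7 members were called in both with the same direction, which is 7 of the 9 called in the first and 7 of the 8 in the second (46.0 % of all genes tested were called in both with the same direction). The members higher at 1 % O2 in both were Bcl2, Bmf, Bax and Bak1, and those lower in both were Mcl1, Pmaip1 and Bid. The median absolute log2 fold change of the members was 0.33 without and 0.37 with stimulation, against 0.23 and 0.21 over all genes.

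Stimulation moved fewer members, and the largest changes were in the BH3-only branch. In 5 % STIM against 5 % CTRL, 4 members rose, 1 fell and 5 were not called, and 4 did not overlap; of all genes 21.4 % were called, 9.44 % higher and 12.0 % lower, with 11.1 % not overlapping. In 1 % STIM against 1 % CTRL, 3 members rose, 3 fell and 4 were not called, and 4 did not overlap; of all genes 22.3 % were called, 11.5 % higher and 10.8 % lower, with 11.2 % not overlapping. Bcl2l11, Bbc3 and Bmf rose and Bcl2l1 fell in both, so that 4 members were called in both with the same direction (8.77 % of all genes tested). The interaction, which is the response to stimulation at 1 % O2 minus that at 5 % O2, was called for 2 of 10 members, Bcl2l1 and Bcl2l11, against 11.3 % of all genes. Comparisons that share a group, such as both against 5 % CTRL, are not independent of each other.

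**Figure D2:**
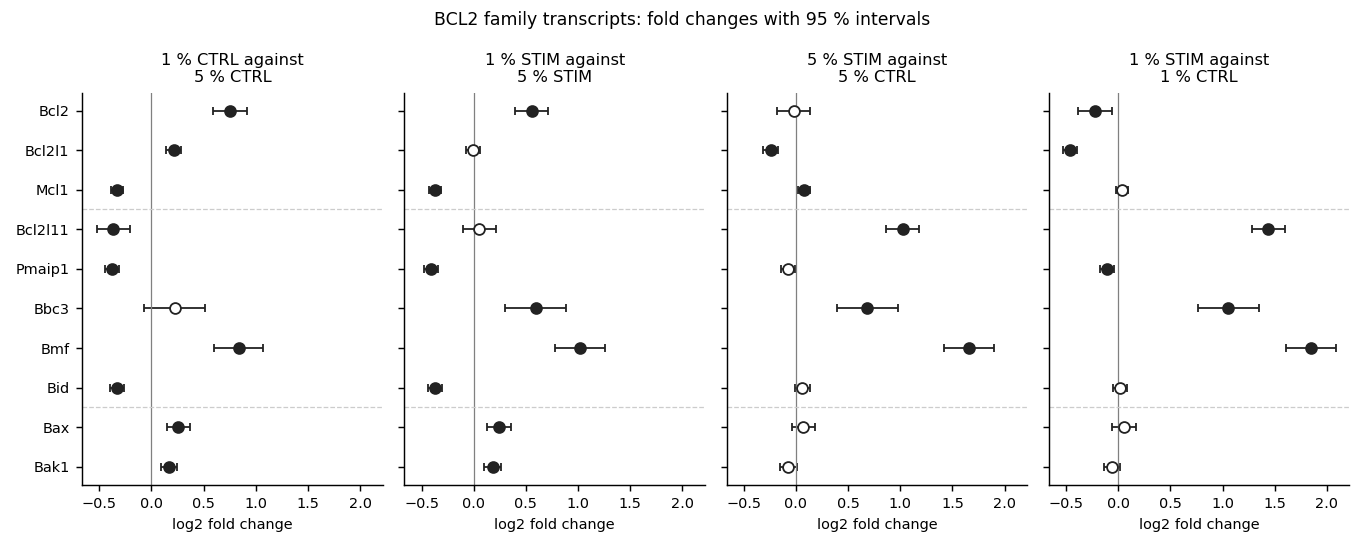
Log2 fold change of each BCL2 family gene (horizontal axes) in the 4 comparisons, with 95 % confidence intervals as bars and genes ordered by role, pro-survival, BH3-only and effector, between dashed lines. Filled points were called at an adjusted p under 0.05 and open points were not; in the stimulation comparisons Bmf has the highest value, 1.66 at 5 % O2 and 1.85 at 1 % O2.

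Among the pro-survival members, Bcl2 rose with low O2. BCL2 is the founding member of the family and sits on the outer mitochondrial membrane, the endoplasmic reticulum and the nuclear envelope. Its gene (ENSMUSG00000057329, GRCm38 chr1:106538178-106714274, minus strand) had normalized counts from 251 to 313 in 5 % CTRL (median 257) and from 418 to 529 in 1 % CTRL (median 435). In the stimulated groups it ranged from 209 to 307 in 5 % STIM (median 267) and from 327 to 449.6 in 1 % STIM (median 379). Each 1 % O2 library was above every 5 % O2 library of the same stimulation state. For 1 % O2 the log2 fold change was 0.75 (SE 0.08, limma adjusted p = 4.26e-10) without stimulation, or 0.70 without 1 % CTRL replicate 1, and 0.55 (SE 0.08, adjusted p = 2.81e-07) with it. Stimulation left no called change at 5 % O2, with a log2 fold change of -0.02 and a 95 % interval from -0.18 to 0.14, and its sign turned when libraries were rescaled to the same total (0.01). At 1 % O2 the stimulated libraries were lower by a log2 fold change of -0.22 (limma adjusted p = 0.0402) with overlapping groups, a call that was lost without 1 % CTRL replicate 1 (-0.17, adjusted p = 0.102) and without 1 % STIM replicate 1 (-0.18, adjusted p = 0.127). It was also lost without replicates 2, 4 or 5 of 1 % CTRL or 4, 5 or 6 of 1 % STIM, without the filter on low values (adjusted p = 0.0756) and with libraries rescaled to the same total (adjusted p = 0.0631).

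Bcl2l1 fell with stimulation and rose with low O2 in unstimulated myotubes. It encodes BCL-XL, the long pro-survival isoform, and a short isoform of opposite effect that a count per gene does not separate. The gene (ENSMUSG00000007659, chr2:152780668-152831728, minus strand) ranged from 1529.55 to 1683 in 5 % CTRL (median 1611), from 1787 to 1939 in 1 % CTRL (median 1861), from 1308 to 1476 in 5 % STIM (median 1333) and from 1313 to 1432 in 1 % STIM (median 1337). All 1 % CTRL libraries lay above all 5 % CTRL libraries, and every stimulated library lay below every unstimulated one. With 1 % O2 it changed by a log2 fold change of 0.21 (SE 0.03, limma adjusted p = 1.39e-06) without stimulation and -0.01 (95 % interval -0.08 to 0.06, adjusted p = 0.844) with it. That second value became 0.06 when libraries were rescaled to the same total. Stimulation lowered Bcl2l1 by a log2 fold change of -0.24 (adjusted p = 8.24e-07) at 5 % O2 and of -0.47 (adjusted p = 3.62e-13) at 1 % O2. The difference between these responses was -0.22 (SE 0.05, limma adjusted p = 0.00153).

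Mcl1 was the most abundant member per length and fell with low O2. MCL1 is a short-lived pro-survival protein that is bound by NOXA and by BIM. Its gene (ENSMUSG00000038612, chr3:95658788-95663176, plus strand) ranged from 6295 to 6962 in 5 % CTRL (median 6687) and from 5108 to 5579 in 1 % CTRL (median 5248). With stimulation the range was 6847 to 7229 at 5 % O2 (median 7041) and 5251 to 5734 at 1 % O2 (median 5401). No 1 % O2 library reached the lowest 5 % O2 library. Low O2 lowered it by a log2 fold change of -0.33 (SE 0.03, limma adjusted p = 4.30e-12) without and -0.37 (SE 0.03, adjusted p = 2.33e-13) with stimulation. For stimulation the log2 fold change was 0.08 (adjusted p = 0.0476) at 5 % O2, with overlapping groups, and 0.03 (95 % interval -0.02 to 0.09, adjusted p = 0.46) at 1 % O2. The call at 5 % O2 was lost without the filter on low values (adjusted p = 0.0755) and when any of 16 libraries was left out in turn (replicates 1, 2, 4, 5 and 6 of 5 % CTRL, 2, 4 and 6 of 1 % CTRL, and 1, 3, 4 and 5 of both stimulated groups), with adjusted p up to 0.128 without 5 % CTRL replicate 6.

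In the BH3-only branch, Bmf had the largest fold changes among the 10 members in each of the 4 comparisons. BMF binds pro-survival members and, through a dynein light chain, the actin-based myosin V motor. The gene (ENSMUSG00000040093, chr2:118528757-118549687, minus strand) had normalized counts from 34.6 to 52.3 in 5 % CTRL (median 42.75), from 65.9 to 90.1 in 1 % CTRL (median 75.01), from 103 to 158 in 5 % STIM (median 139) and from 237 to 322 in 1 % STIM (median 272). The 4 groups did not overlap at any point and stood in this order. Low O2 raised it by a log2 fold change of 0.83 (SE 0.12, limma adjusted p = 1.76e-07) without and 1.02 (SE 0.12, adjusted p = 3.63e-09) with stimulation. For stimulation it was 1.66 (adjusted p = 2.88e-13) at 5 % O2 and 1.85 (adjusted p = 1.50e-14) at 1 % O2. The difference between the responses was 0.19 with a 95 % interval from -0.15 to 0.52 and was not called (limma adjusted p = 0.526), and the mean in 1 % STIM was 6.49 times that in 5 % CTRL.

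Bcl2l11 rose with stimulation and fell with low O2 in unstimulated myotubes. It encodes BIM, which binds all pro-survival members, and it is a known target of FOXO factors. The gene (ENSMUSG00000027381, chr2:128126038-128162547, plus strand) ranged from 113 to 148 in 5 % CTRL (median 131), from 92.1 to 119 in 1 % CTRL (median 101), from 254 to 298 in 5 % STIM (median 264) and from 252 to 309.99 in 1 % STIM (median 275.5). The stimulated groups stood clear of the unstimulated ones, and groups of the same stimulation state overlapped. Stimulation raised it by a log2 fold change of 1.02 (SE 0.08, limma adjusted p = 1.71e-12) at 5 % O2 and of 1.44 (SE 0.08, adjusted p = 1.96e-16) at 1 % O2, that is 2.03-fold and 2.71-fold. The difference between these responses was 0.42 (SE 0.11, limma adjusted p = 0.00972). The log2 fold change for 1 % O2 was -0.36 (adjusted p = 1.24e-04) without stimulation and 0.05 (95 % interval -0.10 to 0.21, adjusted p = 0.571) with it.

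Bbc3 was low and more variable. It encodes PUMA, a BH3-only protein under control of p53 and FOXO factors. The gene (ENSMUSG00000002083, chr7:16308393-16318205, plus strand) ranged from 36.3 to 62.0 in 5 % CTRL (median 50.8), from 39.3 to 73.7 in 1 % CTRL (median 63.8), from 70.2 to 104 in 5 % STIM (median 76.9) and from 102 to 148 in 1 % STIM (median 121). Stimulated libraries lay above unstimulated ones at the same O2, and the stimulated groups touched each other at 102 to 104. Stimulation raised Bbc3 by a log2 fold change of 0.68 (SE 0.14, limma adjusted p = 5.27e-04) at 5 % O2 and of 1.05 (SE 0.14, adjusted p = 6.27e-07) at 1 % O2. The difference between these was 0.37 (SE 0.20, limma adjusted p = 0.262) and was not called. For 1 % O2 the log2 fold change was 0.59 (adjusted p = 6.26e-04) with stimulation and 0.22 (95 % interval -0.07 to 0.52, adjusted p = 0.181) without, and the latter was called without 1 % CTRL replicate 1 (0.34, adjusted p = 0.0305) and with limma array weights (0.29, adjusted p = 0.0493).

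Pmaip1 fell with low O2 in both stimulation states. It encodes NOXA, which binds MCL1 with preference and promotes its degradation. The gene (ENSMUSG00000024521) ranged from 3297 to 3475 in 5 % CTRL (median 3405), from 2552 to 2769 in 1 % CTRL (median 2592), from 3067 to 3382 in 5 % STIM (median 3253) and from 2251 to 2565 in 1 % STIM (median 2402). Each 1 % O2 library was below every 5 % O2 library. Low O2 changed it by a log2 fold change of -0.38 (SE 0.03, limma adjusted p = 2.51e-12) without and -0.41 (SE 0.03, adjusted p = 4.41e-13) with stimulation. For stimulation it was -0.08 (adjusted p = 0.0792) at 5 % O2, which was not called except without 5 % STIM replicate 1 (-0.09, adjusted p = 0.0463), and -0.11 (adjusted p = 0.0112) at 1 % O2, with overlapping groups.

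Bid, which links death receptors to mitochondria once caspase 8 has cut it, fell with low O2 by a like amount. The gene (ENSMUSG00000004446, chr6:120891930-120916853, minus strand) ranged from 1136 to 1307.5 in 5 % CTRL (median 1242), from 959.7 to 994 in 1 % CTRL (median 977), from 1254 to 1326 in 5 % STIM (median 1282) and from 969 to 1023 in 1 % STIM (median 983). The 1 % O2 and 5 % O2 libraries did not overlap. The log2 fold change for 1 % O2 was -0.33 (SE 0.03, limma adjusted p = 1.59e-10) without and -0.37 (SE 0.03, adjusted p = 1.16e-11) with stimulation. The log2 fold change for stimulation was 0.06 (95 % interval -0.01 to 0.13) at 5 % O2, called, among the alternatives run, only when libraries were rescaled to the same total (0.09, adjusted p = 0.049), and 0.02 (-0.05 to 0.09) at 1 % O2. In the annotation 15.7 % of the 75-base stretches of its exons also lie in Bcl2l13 on the other strand, whose mean normalized count fell with 1 % O2 from 3099 to 2720.28 without stimulation (log2 fold change -0.19) and from 2952 to 2672 with it (-0.14). Since the counting did not use the strand, the division of reads from the shared stretch between both genes is an estimate made by RSEM.

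Both effectors rose modestly with low O2 and showed no called change with stimulation. BAX waits mainly in the cytosol and moves to mitochondria when activated, while BAK1 is held in the outer membrane. Bax (ENSMUSG00000003873, chr7:45461697-45466898, minus strand) ranged from 619.7 to 769 in 5 % CTRL (median 669), from 675 to 876 in 1 % CTRL (median 826), from 669 to 742 in 5 % STIM (median 713) and from 737 to 893 in 1 % STIM (median 851). The O2 groups overlapped in both stimulation states, and the lowest 1 % CTRL value belonged to replicate 1, the other 5 lying at 804 or above. The log2 fold change of Bax for 1 % O2 was 0.26 (SE 0.06, limma adjusted p = 1.65e-04) without stimulation, 0.31 without 1 % CTRL replicate 1, and 0.24 (SE 0.06, adjusted p = 4.50e-04) with stimulation.

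Bak1 (ENSMUSG00000057789, chr17:27019810-27029009, minus strand) ranged from 1813 to 1987 in 5 % CTRL (median 1941), from 2058 to 2274 in 1 % CTRL (median 2175), from 1676 to 1983 in 5 % STIM (median 1868) and from 1924 to 2140.15 in 1 % STIM (median 2107). The unstimulated groups did not overlap and the stimulated ones did. Bak1 rose with 1 % O2 by a log2 fold change of 0.17 (SE 0.04, limma adjusted p = 3.87e-04) without and 0.18 (SE 0.04, adjusted p = 1.53e-04) with stimulation. For stimulation, the 95 % intervals of the log2 fold change ran from -0.15 to 0.01 at 5 % O2 and from -0.14 to 0.02 at 1 % O2 for Bak1, and from -0.04 to 0.19 and from -0.06 to 0.17 for Bax. In the annotation 12.8 % of the 75-base stretches of Bak1 exons are shared with the antisense gene Ggnbp1, whose entries had mean normalized counts of at most 62.2 in any group.

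Per kilobase of exon, the members spanned over 2 orders of magnitude. The length was that of all annotated exons of a gene joined, from 1.576 kb for Bax to 9.157 kb for Bcl2. The lengths of the transcripts expressed were not measured. Levels compared between genes, and the ratios and shares below, depend on this choice. In 5 % CTRL the mean normalized count per kilobase was 1951 for Mcl1, 1245 for Pmaip1, 802 for Bak1, 428 for Bax, 351 for Bcl2l1, 346 for Bid, 29.0 for Bcl2, 23.9 for Bbc3, 16.5 for Bcl2l11 and 8.14 for Bmf. Bcl2l1 and Bid were within their spread of each other there (SD 11.7 and 17.0). Mcl1 and Pmaip1, both lower at 1 % O2, were the top pair in each group, although Bak1 (865) lay within the spread of Pmaip1 (887, SD 43.0) in 1 % STIM, and the median of their ratio per kilobase was 1.56 at 5 % O2 and 1.61 at 1 % O2 without stimulation, against 1.72 and 1.82 with it. Bmf had the lowest level in 5 % CTRL and a mean of 52.8 in 1 % STIM. There it stood above Bcl2 (42.1) and Bcl2l11 (34.8) per kilobase, and within the spread of Bbc3 (58.3, SD 8.99). That order rests on the exon lengths. The mean normalized counts in 1 % STIM were 385 for Bcl2, 279 for Bcl2l11, 277 for Bmf and 124 for Bbc3.

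Ratios between members of opposite role are given as descriptions without a test. The ratio of Bcl2 to Bax per kilobase had a median of 0.069 in 5 % CTRL (0.056 to 0.079) and 0.09 in 1 % CTRL (0.085 to 0.135), where the highest value came with the high Bcl2 and low Bax of replicate 1. In the stimulated groups it was 0.063 at 5 % O2 (0.053 to 0.075) and 0.077 at 1 % O2 (0.063 to 0.105). The ratio of Bcl2l1 to Bcl2l11 ranged from 19.2 to 23.7 in 5 % CTRL, from 27.4 to 35.1 in 1 % CTRL, from 8.12 to 9.62 in 5 % STIM and from 7.50 to 9.75 in 1 % STIM. Every stimulated library thus had a lower ratio of this pro-survival to this BH3-only transcript than every unstimulated one. The ratio of Mcl1 to Bcl2l11 ranged from 101 to 145 in the unstimulated libraries and from 39.8 to 66.4 in the stimulated ones. Both ratios share Bcl2l11, which rose with stimulation, and Mcl1 itself did not fall with it. The median ratio of Bcl2 to Bmf was also lower with stimulation, 3.63 against 1.11 at 5 % O2 and 3.27 against 0.80 at 1 % O2. That of Mcl1 to Pmaip1 went the other way, from 1.56 to 1.72 at 5 % O2 and from 1.61 to 1.82 at 1 % O2, with overlapping groups at 1 % O2.

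Summed over the 10 members per kilobase, the effectors took a larger share at 1 % O2. Their share was 23.7 % ± 1.1 (SD, n = 6) in 5 % CTRL and 30.01 % ± 1.2 in 1 % CTRL, and 23.2 % ± 1.0 in 5 % STIM and 30.1 % ± 1.1 in 1 % STIM. The pro-survival share was 44.8 % in 5 % CTRL against 42.6 % in 1 % CTRL and 45.5 % in 5 % STIM against 41.5 % in 1 % STIM, and the BH3-only share was 31.5 % against 27.4 % and 31.3 % against 28.3 %. These shares depend on the choice of the 10 members. The pro-survival gene Bcl2l2, outside them, had means per kilobase of 447 in 5 % CTRL and 596 in 1 % CTRL. In 5 % STIM and 1 % STIM they were 466 and 547, and Bcl2l2 stood above Bcl2l1 in each group. A share also depends on the whole sum, in which Mcl1 and Pmaip1 were lower at 1 % O2. Mcl1 and Pmaip1 made up 37.5 % and 23.95 % of the sum in 5 % CTRL, whereas Bmf, Bcl2l11 and Bbc3 each stayed at 1.26 % or less in every group on average.

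**Figure D3:**
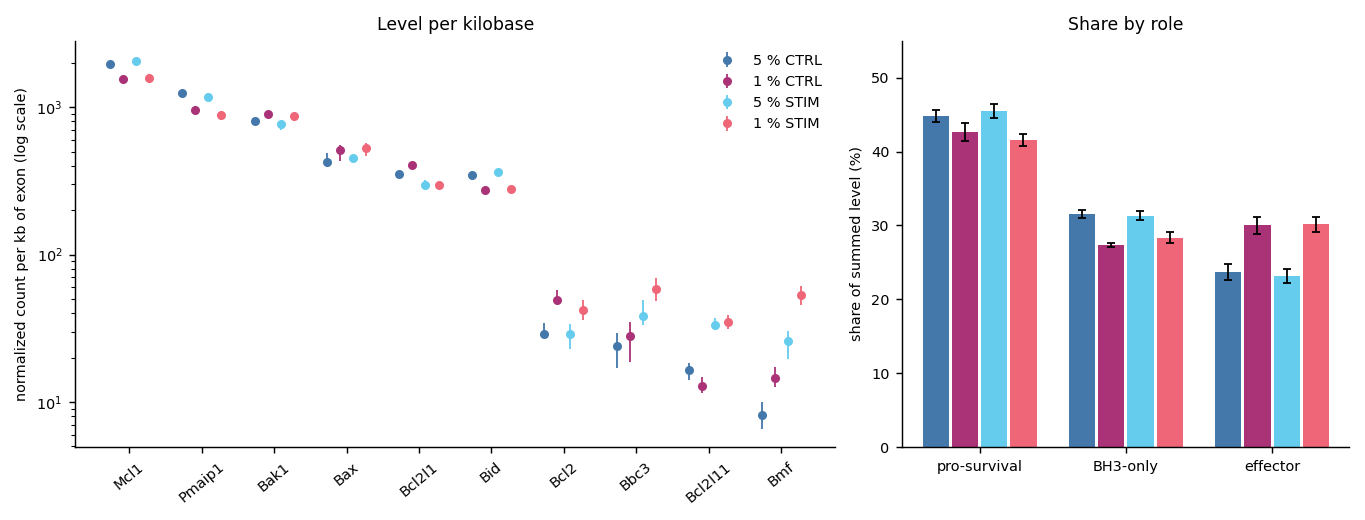
Left, mean normalized count per kilobase of exon of each BCL2 family gene (vertical log axis), with bars from the lowest to the highest of 6 libraries in each group. Right, share of the summed level per kilobase taken by each role (vertical axis in %, from 0), with bars for the group means and error bars for the SD over 6 libraries; the effector share is near 30 % in both 1 % O2 groups and near 23 % in both 5 % O2 groups.

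Of 16 other family genes, 9 passed the filter. With 1 % O2, 5 rose and 2 fell without stimulation, and 4 rose and 1 fell with it, beside 59.9 % and 57.4 % of all genes called. Bnip3 and Bnip3l encode mitochondrial BH3-like proteins that recruit the machinery of mitophagy and are known hypoxia targets. The mean of Bnip3 went from 3834 in 5 % CTRL to 8724 in 1 % CTRL (log2 fold change 1.19, SE 0.06, limma adjusted p = 5.17e-14) and from 3746 in 5 % STIM to 6467 in 1 % STIM (0.79). Bnip3l went from 3289 to 5054 (0.62, SE 0.03, adjusted p = 1.74e-17) and from 3506 to 4160 (0.25). Stimulation raised 1 of the 9 at 5 % O2, Bnip3l (0.09, limma adjusted p = 0.0412), and lowered 3 at 1 % O2, among them Bnip3 (-0.43) and Bnip3l (-0.28). Of all genes, 21.4 % and 22.3 % were called in these comparisons.

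The next list holds the apoptosome and executioner caspases after the mitochondrial step. It also holds Casp8, Fadd and Cflar of the death receptor pathway, before that step. Of 18 apoptosome, caspase and inhibitor genes tested (19 listed), 11 rose and 1 fell in 1 % CTRL against 5 % CTRL, and 12 rose and 2 fell in 1 % STIM against 5 % STIM, beside the all-gene shares given above (29.4 % higher and 30.5 % lower, and 29.0 % and 28.4 %). Casp6, an executioner caspase, went from a mean of 147 to 276 without stimulation (log2 fold change 0.91, SE 0.08, limma adjusted p = 2.84e-12). Apaf1, the scaffold of the apoptosome, went from 294 to 431 without and from 286 to 478 with stimulation (0.55 and 0.74). The 1 gene that fell without stimulation was Cflar, which encodes the caspase 8 inhibitor FLIP, from 4025 to 2845 (-0.50, SE 0.03, limma adjusted p = 1.46e-14). Cflar rose with stimulation by 0.26 at 5 % O2 and 0.32 at 1 % O2. Xiap, another caspase inhibitor gene of the list, was higher with 1 % O2. Its means were 1692 and 1951 without stimulation and 1676 and 1998 with it, without overlap in either case. Stimulation raised 3 and lowered 3 of the 18 at 5 % O2, and raised 4 and lowered 1 at 1 % O2, beside 21.4 % and 22.3 % of all genes called.

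Of 20 genes of the p53 list, 9 rose and 3 fell with stimulation at 5 % O2 and 11 rose and 1 fell at 1 % O2, beside 21.4 % and 22.3 % of all genes called. With 1 % O2, 7 rose and 6 fell without stimulation and 7 rose and 5 fell with it, beside 59.9 % and 57.4 % of all genes called. Trp53inp1, a stress-induced regulator of p53 and autophagy, rose with stimulation at both O2 levels, and its means went from 809.7 to 1768 at 5 % O2 (1.13) and from 871.5 to 2434 at 1 % O2 (1.48). Fas, a death receptor, rose from 87.3 to 172 at 5 % O2 (0.96, SE 0.09, limma adjusted p = 2.91e-10), and Btg2, an antiproliferative gene, from 514 to 1017 at 1 % O2 (0.98). Plk3, a stress kinase, fell with 1 % O2 without stimulation from 523 to 180.2 (-1.54, SE 0.09, limma adjusted p = 4.19e-15), as did Gadd45a, a growth arrest gene, from 4781 to 2834 (-0.77). Zmat3, a p53-induced RNA-binding protein gene, rose with 1 % O2 in stimulated cultures from 894.6 to 1709 (0.93). Without stimulation its means were 1020 at 5 % O2 and 1644 at 1 % O2, and these groups did not overlap either.

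Transcription factors known to control the family changed in both directions. Of 16 tested (17 listed), 4 rose and 10 fell with 1 % O2 without stimulation and 4 rose and 9 fell with it, beside 59.9 % and 57.4 % of all genes called. Stimulation raised 8 at 5 % O2 and raised 9 and lowered 3 at 1 % O2, beside 21.4 % and 22.3 % of all genes called. E2f1, a cell cycle factor, rose from 368 to 783 in 1 % CTRL (log2 fold change 1.09, SE 0.07, limma adjusted p = 5.61e-16), and Egr1, an immediate early factor, fell from 3577 to 1367 (-1.39, SE 0.10). The stress factors Ddit3 and Atf3 rose with stimulation at 5 % O2 from 591 to 917 (0.63) and from 163 to 311 (0.94), and at 1 % O2 from 537 to 1072 (0.98) and from 85.03 to 152 (0.84). Ddit3 is listed under 2 identifiers, and the one with the higher count was used.

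Among 13 genes for partners and turnover of the members, 5 rose and 5 fell with 1 % O2 without stimulation and 4 rose and 4 fell with it. The shares of all genes called were 59.9 % and 57.4 % in these comparisons, and 21.4 % and 22.3 % for stimulation at 5 % and 1 % O2. Fbxw7, part of a ubiquitin ligase that targets MCL1, fell from a mean of 3594 to 1967 without stimulation (log2 fold change -0.87, SE 0.04, limma adjusted p = 2.26e-20) and from 3306 to 1786 with it (-0.89). Btrc, another ubiquitin ligase subunit, rose from 461 to 583 with 1 % O2 in stimulated cultures (0.34). Without stimulation its means were 463 at 5 % O2 and 554 at 1 % O2, and these groups did not overlap either. Dynll1, the dynein light chain that tethers BIM, rose from 2678 to 3521 without stimulation (0.39, overlapping groups). Stimulation raised 1 and lowered 2 of the 13 at 5 % O2 and raised 1 and lowered 4 at 1 % O2, with Tmbim6, the BAX inhibitor 1 gene, at 7494 and 8001 in 5 % CTRL and 5 % STIM (0.09, adjusted p = 0.0136). For the interaction, 3 of 9 other family genes, 1 of 18 apoptosome and caspase genes, 7 of 20 p53 genes, 7 of 16 transcription factors and 0 of these 13 partners were called by limma, against 11.3 % of all genes. Of the 13 partners, 4 had an unadjusted p under 0.05 for the interaction, and 0 were called by edgeR or voom and 1 by DESeq2.

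The genes most like each member over the 24 libraries were found by Pearson's r on the log2 scale among 10781 genes with a symbol and a mean of at least 100, as a description in which the libraries share their groups. For Bmf these were Pik3ip1 (r = 0.979), which encodes an inhibitor of PI3-kinase, and Pim1 (r = 0.972), a survival kinase that was also second for Bbc3 (r = 0.9) after Dnase2a (r = 0.921). Pim1 had mean normalized counts of 109 and 162.5 in the unstimulated cultures at 5 % and 1 % O2, and of 389 and 929 in the stimulated ones. For Bcl2l11 they were Slc40a1 (r = 0.982), the iron exporter ferroportin, and Gcnt1 (r = 0.971). Bcl2 was most like Madd (r = 0.969) and Gopc (r = 0.96), and Bcl2l1 like 9930012K11Rik (r = 0.961) and Rhobtb2 (r = 0.943). Mcl1 was most like Ddhd1 (r = 0.984) and Xpot (r = 0.979), Pmaip1 like Mid1 (r = 0.976) and Smg8 (r = 0.975), and Bid like Epn2 and Ccn4 (r = 0.971 each). The effectors had the weakest likeness, with Hoxc11 and Maz for Bax (r = 0.897 each) and Sympk (r = 0.904) and Spryd3 (r = 0.889) for Bak1.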

How the data were processed

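Polyadenylated RNA of 24 C2C12 cultures was sequenced by the authors from stranded libraries, aligned to GRCm38 with STAR (2.5.4b) and counted per gene with RSEM (1.3.0), which did not use the strand. The deposited signal is the count of each gene divided by the DESeq2 size factor of its library. All values were whole multiples of 1 read (100 %, tolerance 0.01), so whole reads were recovered for edgeR, DESeq2 and voom as alternatives. A second table with the authors' own fold changes and p-values was not used.

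Genes with at least 10 normalized counts in at least 6 libraries were tested with limma (3.58.1; robust eBayes with an intensity trend, R 4.3.3) on log2(normalized count + 1) in 1 fit of 4 groups, tested on simulated data. edgeR was version 4.0.16 and DESeq2 1.42.0. Other alternatives were a pseudocount of 10, no filter, the compared groups alone, rescaling to the same total, array weights, a replicate block, a threshold of 0.01 and leaving out each library. Groups follow the labels. Same-numbered libraries did not deviate together (r from -0.148 to 0.155), so numbers were not treated as pairs. The members and lists were chosen with earlier results of these data known. From each related list, up to 2 called genes per comparison with the largest change and a mean of at least 100 were named. Cflar in 1 % CTRL, as the 1 gene that fell, and Casp8, Fadd and Bcl2l13, for their place in a list or an overlap, were named after values were seen. Bcl2l2, Xiap, Mki67 and Top2a, and the values of Zmat3 and Btrc without stimulation, were also given after values were seen. P-values measure the spread between cultures of 1 line. Exon lengths and overlaps came from GENCODE M21.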

Additional observations from a re-analysis of the deposited data

Results flagged for a closer look

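The response to stimulation differed between 1 % and 5 % O2 for 2 members by the limma interaction term. The difference in log2 fold change was -0.221 for Bcl2l1 (adjusted p = 0.00153) and 0.418 for Bcl2l11 (adjusted p = 0.00972).

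Single libraries stood apart from the other 5 of their group for 8 of the 40 combinations of member and group examined, by the gap to the nearest library over the range of the group, and chance alone gives about 1 in 20. Bcl2 was high in 5 % CTRL replicate 1, at 312.9 against 251.2 to 264.0, and in 1 % CTRL replicate 1, at 529.2 against 417.8 to 457.3. Bax was low in 1 % CTRL replicate 1, at 674.7 against 803.6 to 876.0. In 1 % STIM replicate 4, Bcl2l1 was high at 1432.0 against 1313.3 to 1351.7 and Bak1 was low at 1923.6 against 2098.7 to 2140.1. The others were Mcl1 in 1 % STIM replicate 2 at 5734.0, Bcl2l11 in 5 % STIM replicate 4 at 298.5 and Pmaip1 in 1 % CTRL replicate 3 at 2769.4.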

How the results depend on the processing

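Of 490 member changes under alternatives other than leaving out a library, 480 kept direction and call, 6 lost the call, 2 gained it and 2 turned sign, the last being Bcl2 in 5 % STIM against 5 % CTRL (0.009) and Bcl2l1 in 1 % STIM against 5 % STIM (0.062) with libraries rescaled to the same total. Of 1200 with each library left out in turn, 1165 kept both, 24 lost the call, 2 gained it and 9 turned sign. Those 9 were in uncalled changes, whose ranges were -0.069 to 0.042 (Bcl2, 5 % STIM against 5 % CTRL), -0.026 to 0.016 (Bcl2l1, 1 % STIM against 5 % STIM), -0.07 to 0.016 (Bax, interaction) and -0.011 to 0.037 (Bak1, interaction). At an adjusted p under 0.01, calls among all genes went from 3115 to 1944 for stimulation at 5 % O2 and from 1645 to 830 for the interaction, by construction of the stricter threshold. With a replicate block, 9, 5, 8, 6 and 2 members were called in the 4 comparisons and the interaction, as without it, and 3190 in place of 3115 genes were called for stimulation at 5 % O2. Depth was not varied; the lowest member value rested on 34 reads (Bmf, 5 % CTRL).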
